A study of Mus musculus with 2 samples.

Results

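The keratin genes of the villus epithelium are described here: Krt7, Krt8, Krt18, Krt19, Krt20 and Krt23. The 6 genes were taken by name from the 20720 gene symbols of the table, and each has 1 row, so none had to be chosen among transcripts. RNA-seq libraries were made from villi purified from the small intestine of C57BL/6 mice. The dKO-labelled library came from a Rosa26-CreERT2 Cdkn2a-/- Ring1a-/- Ring1bf/f mouse, and the control library from a Rosa26-CreERT2 Cdkn2a-/- mouse, so both lack Cdkn2a and both carry the inducible Cre. Both were taken 6 days after 3 injections of tamoxifen, which activates the Cre. The Cre sits at Rosa26, a locus active in most tissues, so deletion of Ring1b is not limited to the epithelium, while the label gives the Ring1a loss as constitutive. Ring1a (gene symbol Ring1) and Ring1b (Rnf2) are the ubiquitin ligases of Polycomb repressive complex 1, which keeps developmental genes silent.

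Keratins are the intermediate filament proteins of epithelial cells. A filament is built from pairs of an acidic type I keratin and a basic type II keratin, and a keratin without a partner is degraded. In simple epithelia such as that of the intestine, the type II keratin is mainly keratin 8, and its type I partners are keratins 18, 19 and 20. Keratin 20 marks differentiated cells of the villus, whereas keratins 8, 18 and 19 are found along crypt and villus. Keratin 7 is a second type II keratin, best known from ducts and glands. Keratin 23 is a type I keratin known in mouse liver as inducible by stress.

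There was 1 library for each genotype. Nothing below could therefore be checked in replicates, and no test between conditions was possible. Differences are described by size, and intervals are 95% exact counting intervals of these libraries, which cover counting error only. They are Clopper-Pearson for shares and for ratios between the libraries, and Poisson for levels. Contrasts of ratios taken within each library, and ratios relative to pan-epithelial genes, have exact conditional odds-ratio intervals. The dKO-labelled library held 1058196 recovered reads and the control library 775827. Ratios were scaled with the deposited size factors unless another scaling is named. Ring1 had 10 reads in the dKO-labelled library and 10 in the control library, and Rnf2 had 82 in the dKO-labelled library and 59 in the control library (ratio 1.25, 0.886 to 1.78). Neither was lower beyond counting error, and counts over whole transcripts do not show a deleted exon. The library is therefore called dKO-labelled. Xist had 1 read in the dKO-labelled library and 80 in the control library, and Y-linked Ddx3y had 131 in the dKO-labelled library and 0 in the control library, so sex and genotype cannot be told apart here.

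The members lie in the 2 keratin clusters of the mouse genome. Krt7, Krt8 and Krt18 are on chromosome 15 and Krt19, Krt20 and Krt23 on chromosome 11. In RefSeq (GRCm38.p6), 0 protein-coding genes start between Krt8 and Krt18, and 0 between Krt20 and Krt23. The bases upstream of the annotated start are shown for the members with the highest ratio (Krt7), the lowest ratio (Krt23) and the highest level (Krt20), since CG dinucleotides are the sequence feature of many Polycomb target promoters. Each run gives 250 bases 5′ to 3′ on the gene's strand, from RefSeq, build GRCm38.p6, with CG in capitals. The spans are chr15:101412153-101412402 (plus strand) for Krt7, chr11:99438154-99438403 (minus strand) for Krt20 and chr11:99493121-99493370 (minus strand) for Krt23.
Krt7: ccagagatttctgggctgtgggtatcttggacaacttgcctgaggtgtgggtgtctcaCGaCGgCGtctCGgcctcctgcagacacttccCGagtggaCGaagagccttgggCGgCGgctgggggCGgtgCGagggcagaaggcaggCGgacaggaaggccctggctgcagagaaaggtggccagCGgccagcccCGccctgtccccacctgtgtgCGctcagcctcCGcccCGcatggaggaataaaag
Krt20: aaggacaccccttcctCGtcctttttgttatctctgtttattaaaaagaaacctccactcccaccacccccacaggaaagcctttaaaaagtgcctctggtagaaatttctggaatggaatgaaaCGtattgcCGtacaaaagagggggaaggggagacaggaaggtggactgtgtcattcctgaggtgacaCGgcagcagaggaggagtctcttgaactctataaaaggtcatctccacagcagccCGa
Krt23: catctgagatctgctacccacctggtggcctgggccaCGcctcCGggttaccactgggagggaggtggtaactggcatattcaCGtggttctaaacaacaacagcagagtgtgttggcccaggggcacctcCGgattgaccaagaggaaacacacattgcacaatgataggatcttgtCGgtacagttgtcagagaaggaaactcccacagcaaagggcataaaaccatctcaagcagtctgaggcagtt

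CG occurred 16 times upstream of Krt7 and 5 times each upstream of Krt20 and Krt23. It occurred 12 times upstream of Krt18 and 3 times upstream of Krt8. Over all 32851 RefSeq promoters of the same length the median was 6, while 25.4% had at least 16 and 33.5% at least 12. Krt7 and Krt18 thus had the most CG of the 5 members with an entry, at counts that are common among promoters. The motif TATAAA, searched on both strands, was present in 1 of the 5 promoters, that of Krt20, where it starts 29 bases before the annotated start. It was present in 12.4% of all promoters. Polycomb occupancy was not measured in these libraries. Krt19 has no entry in the promoter table used here.

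Keratin RNA was abundant in both libraries. The 6 genes together had 6887 reads in the dKO-labelled library and 5101 in the control library. That was 0.651% of all reads in the dKO-labelled library (0.636 to 0.666%) and 0.657% in the control library (0.640 to 0.676%), so the shares differed by less than counting error. With the deposited size factors the summed ratio was 1.22 (1.17 to 1.26). Its direction follows the scaling, as the log2 ratio of the sum was 0.28 with the deposited factors, -0.01 with total counts and -0.23 with edgeR's TMM. The median log2 ratio of the 6000 measured genes, those with a mean normalised count of at least 20, was 0.51, and the keratin sum lay 0.22 below it.

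The order of the levels was compared as normalised reads per kilobase of coding sequence. Krt20 was highest, at 1576 in the dKO-labelled library (1510 to 1644) and 1601 in the control library (1531 to 1673). Krt8 followed with 1329 (1272 to 1388) in the dKO-labelled library and 1037 (984 to 1092) in the control library. These were the leading type I and type II keratins of both libraries. Krt19 had 794 and Krt18 had 687 in the dKO-labelled library, and their intervals did not overlap. In the control library the order of these genes was the opposite, with 388 for Krt19 and 652 for Krt18. Krt7 had 409 (376 to 443) in the dKO-labelled library and 182 (160 to 207) in the control library. Krt23 had 123 (105 to 143) in the dKO-labelled library and 185 (161 to 211) in the control library. Krt7 and Krt23 were thus level in the control library within counting error, and apart in the dKO-labelled library. Per kilobase of whole transcript, Krt18 and Krt19 were within counting error of each other in the dKO-labelled library (607 for Krt18 and 609 for Krt19), as were Krt20 and Krt8 to within their intervals (1057, 1013 to 1103, and 998, 955 to 1042). The GENCODE transcript of Krt7 has 4094 bases, of which 1371 are coding, against 1437 to 1958 bases for the other members, so its level per transcript length was lower, at 137 in the dKO-labelled library and 61.0 in the control library, below the 149 of Krt23 in the control library.

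**Figure D1:**
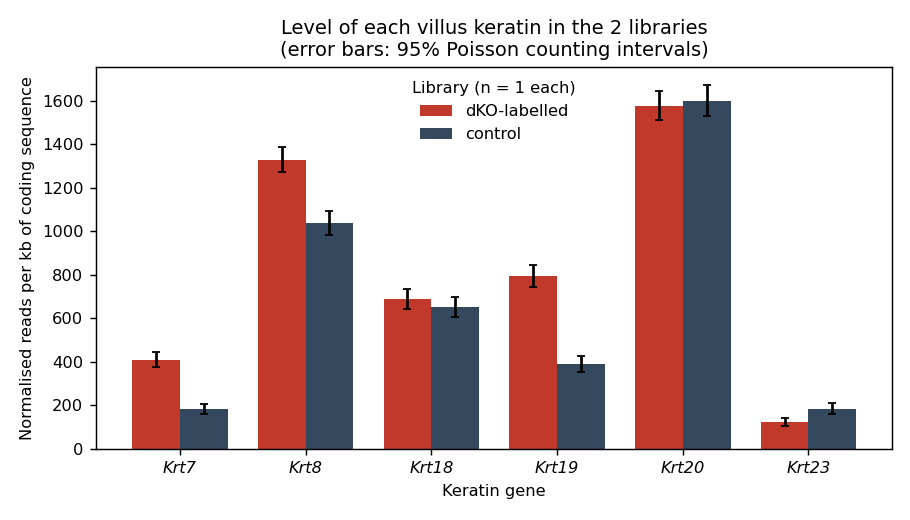
Normalised reads per kilobase of coding sequence (linear axis) for the 6 keratins in the dKO-labelled library (left bar of each pair) and the control library (right bar), with 95% Poisson counting intervals. Krt20 stands at 1576 (dKO-labelled) and 1601 (control), while Krt7 stands at 409 (dKO-labelled) and 182 (control) and Krt19 at 794 (dKO-labelled) and 388 (control).

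Krt7 and Krt19 had the highest ratios between the libraries. Krt7 had 590 reads in the dKO-labelled library and 237 in the control library, or normalised counts of 561 in the dKO-labelled library and 251 in the control library. It was 2.24-fold higher in the dKO-labelled library (1.93 to 2.62). Krt19, the smallest type I keratin, had 1011 reads in the dKO-labelled library and 445 in the control library, or normalised counts of 961 in the dKO-labelled library and 470 in the control library. It was 2.05-fold higher (1.83 to 2.29). Both passed the 2-fold rule, which asks for a log2 ratio of at least 1 in size on the log2(normalised count + 1) scale, and neither interval lay wholly beyond 2-fold.

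The other members did not pass that rule. Krt8 had 2058 reads in the dKO-labelled library and 1447 in the control library, a ratio of 1.28 (1.20 to 1.37). Krt18 had 918 reads in the dKO-labelled library and 785 in the control library, a ratio of 1.05 (0.957 to 1.16), and Krt20 had 2146 in the dKO-labelled library and 1965 in the control library, a ratio of 0.984 (0.926 to 1.05). For Krt18 and Krt20 the interval included 1. Krt23 was the one member with fewer reads in the deeper dKO-labelled library, 164 against 222 in the control library, a ratio of 0.666 (0.541 to 0.818). In the authors' deposited table the unadjusted p-values of the members lie between 0.378 (Krt7) and 0.986 (Krt20), and with 1 library per group that DESeq p-value had no replicates to draw on.

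By the 2-fold rule, 2 of the 6 members were called higher in the dKO-labelled library and 0 lower. The background over all measured genes was 26.2% for the first call and 4.18% for the second, so the members' counts are near it. Set against the median of the measured genes, 0 members were called higher (background 11.8%) and 1, Krt23, was called lower (background 10.4%). On that footing Krt7 and Krt19 lay 0.65 and 0.52 above the median on the log2 scale. Krt8 lay at -0.15, Krt18 at -0.43, Krt20 at -0.53 and Krt23 at -1.09. The background also changed with the level of the genes. Among the 2413 genes with a mean of at least 100, which include all 6 members, the median log2 ratio was 0.32. Of these, 14.8% were called higher and 4.31% lower. Among the 287 genes with a mean of at least 500, which include Krt19, Krt18, Krt8 and Krt20, the median log2 ratio was 0.10. Of these, 6.27% were called higher and 4.88% lower. Among the 59 genes with a mean of at least 1000, which include Krt8 and Krt20, the median log2 ratio was -0.05. The log2 ratios of Krt8 (0.36) and Krt20 (-0.02) stand beside that value.

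**Figure D2:**
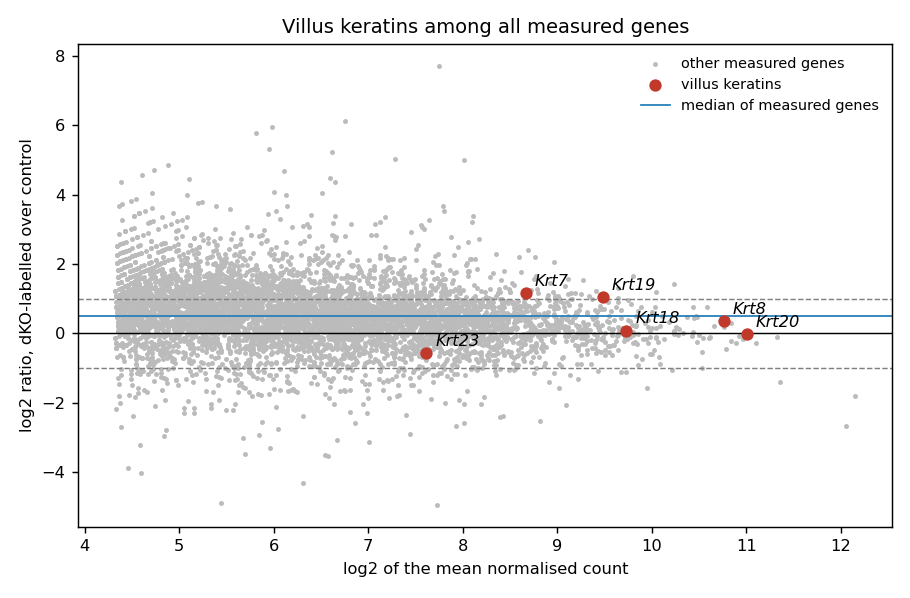
Log2 ratio of the dKO-labelled over the control library against the log2 mean normalised count for the 6000 measured genes (grey) and the 6 keratins (red). Dashed lines mark 2-fold and the blue line the median of 0.51. Krt7 and Krt19 lie just above the upper dashed line, and Krt23 lies at -0.58.

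A scaling moves all 6 genes alike, so their order was fixed, and the sign of 3 of them was not. Krt7 was higher in the dKO-labelled library under each scaling tried, with a log2 ratio between 0.47 (upper quartile) and 1.24 (pan-epithelial genes set equal). Krt19 was likewise higher, between 0.34 and 1.11, and Krt23 lower, between -1.27 and -0.50. Krt8 ranged from -0.34 to 0.44, Krt18 from -0.62 to 0.15 and Krt20 from -0.72 to 0.06. The call of Krt7 and Krt19 at 2-fold held with the deposited factors and the pan-epithelial scaling, and was lost with total counts, TMM, the upper quartile and the median set to 0. That of Krt23 as 2-fold lower was made with TMM, the upper quartile and the median set to 0.

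**Figure D3:**
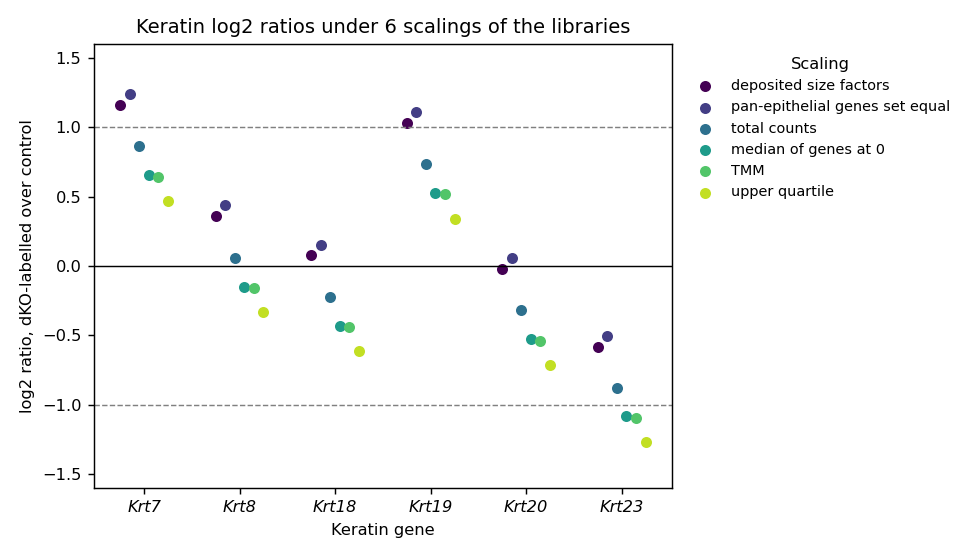
Log2 ratio of the dKO-labelled over the control library for each keratin under 6 scalings, with dashed lines at 2-fold. Every scaling moves all 6 genes by about the same amount. Krt7 and Krt19 stay above 0 and Krt23 below 0, while the points of Krt8, Krt18 and Krt20 fall on both sides.

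The makeup of the keratin reads within a library does not depend on scaling, and it differed between the libraries. Krt20 took 31.2% of the keratin reads in the dKO-labelled library (30.1 to 32.3%) and 38.5% in the control library (37.2 to 39.9%). Krt19 took 14.7% in the dKO-labelled library (13.9 to 15.5%) and 8.72% in the control library (7.96 to 9.53%). Krt7 took 8.57% (7.92 to 9.25%) in the dKO-labelled library and 4.65% (4.08 to 5.26%) in the control library. Krt7 and Krt19 thus took larger shares in the dKO-labelled library and the differentiation keratin Krt20 a smaller one. Krt23 took 2.38% (2.03 to 2.77%) in the dKO-labelled library and 4.35% (3.81 to 4.95%) in the control library. Krt18 took 13.3% (12.5 to 14.2%) in the dKO-labelled library and 15.4% (14.4 to 16.4%) in the control library. Only for Krt8, with 29.9% (28.8 to 31.0%) in the dKO-labelled library and 28.4% (27.1 to 29.6%) in the control library, did the intervals overlap. By the exact binomial test of the reads given below, most measured genes differed between these libraries beyond counting error. That test compares levels after scaling, not shares within a set, so it is no background for the shares. No other set of genes was compared by shares, so intervals that do not overlap are not read as a trait of the keratins. Shares of 1 sum are tied to each other, so a larger share of some members lowers the others.

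**Figure D4:**
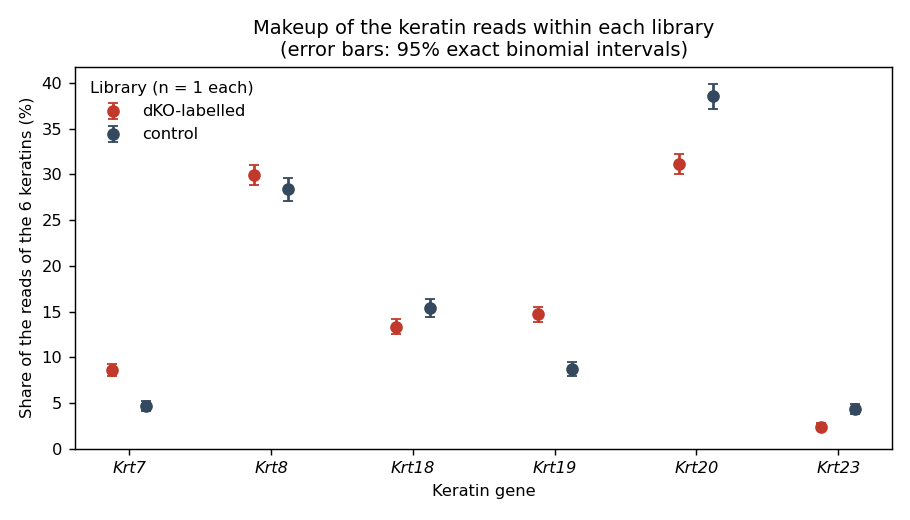
Share of the summed reads of the 6 keratins taken by each gene, in percent, in the dKO-labelled library (left point) and the control library (right point), with 95% exact binomial intervals. Krt20 stands at 31.2% (dKO-labelled) and 38.5% (control), Krt19 at 14.7% (dKO-labelled) and 8.72% (control) and Krt7 at 8.57% (dKO-labelled) and 4.65% (control).

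Ratios of members that pair or replace each other in filaments were compared within each library. For Krt8 and Krt18, the classical pair, there were 2.24 Krt8 reads per Krt18 read in the dKO-labelled library and 1.84 in the control library, a ratio of 1.22 (1.08 to 1.37). Among the type I keratins, there were 0.471 Krt19 reads per Krt20 read in the dKO-labelled library and 0.226 in the control library, a ratio of 2.08 (1.83 to 2.37). Krt18 and Krt20 kept their ratio within counting error, at 0.428 in the dKO-labelled library and 0.399 in the control library (1.07, 0.955 to 1.20). The difference among the 3 main type I keratins thus lay in Krt19. Among the type II keratins, there were 0.287 Krt7 reads per Krt8 read in the dKO-labelled library and 0.164 in the control library, a ratio of 1.75 (1.48 to 2.07). The widest contrast was between Krt7 and Krt23, with 3.60 Krt7 reads per Krt23 read in the dKO-labelled library and 1.07 in the control library, a ratio of 3.37 (2.60 to 4.37).

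Type II and type I keratins were also summed. There were 2648 reads of Krt7 and Krt8 and 4239 of the type I members in the dKO-labelled library, and 1684 reads of Krt7 and Krt8 and 3417 of the type I members in the control library. The ratio of type II to type I reads was 0.625 in the dKO-labelled library and 0.493 in the control library, 1.27 times as high (1.17 to 1.37). Per kilobase of coding sequence it was 0.547 in the dKO-labelled library and 0.432 in the control library. Type I RNA, as counted, was thus in excess of type II RNA in both libraries. Reads of Krt8, which gave most of the type II sum, and of Krt18 may be undercounted, as stated in the processing section. Without Krt7 and Krt23 the contrast was 1.12 (1.03 to 1.21).

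The rest of the keratin family was near silent. Of 46 other keratin genes, which serve stratified epithelia, hair and nails for the most part, 1 was measured. It was Krt12, known from the cornea, with 58 reads in the dKO-labelled library and 37 in the control library, a ratio of 1.41 (0.920 to 2.20). The remaining 45 had 58 reads together in the dKO-labelled library and 38 in the control library, with at most 9 in any gene of the dKO-labelled library and 8 in any gene of the control library. In the cluster on chromosome 15, 22 of the 23 protein-coding genes between Krt7 and Krt8 are keratins. The 19 of them in the table had 26 reads in the dKO-labelled library and 7 in the control library, beside 590 (dKO-labelled) and 237 (control) for Krt7 at one edge and 2058 (dKO-labelled) and 1447 (control) for Krt8 at the other. The 11 keratins between Krt23 and Krt19 on chromosome 11 had 8 reads in the dKO-labelled library and 7 in the control library. At least 1 read was found for 24 of the 46 in the dKO-labelled library and for 13 in the control library. With the deeper dKO-labelled library thinned to the total of the control library, a setting that is 1 random draw, 21 were found. Over all symbols the numbers were 13289 in the thinned dKO-labelled library and 12268 in the control library.

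Other intermediate filament genes were examined next, of which few were measured. Among 15 such genes, 4 were measured, of which 3 were called higher in the dKO-labelled library (background 26.2%) and 0 lower (background 4.18%), with a median log2 ratio of 1.56 beside 0.51 for all measured genes. All 4 had means under 100. The share called higher was 14.8% at means of at least 100, so among genes of lower level it lies above the pooled 26.2%. Lmna, which encodes the nuclear lamins A and C, had 142 reads in the dKO-labelled library and 36 in the control library (3.56-fold, 2.45 to 5.28). Lmnb2, a B-type lamin, had 40 reads in the dKO-labelled library and 13 in the control library (2.77-fold, 1.45 to 5.65). Des, the filament protein of muscle, had 38 in the dKO-labelled library and 8 in the control library (4.28-fold, 1.97 to 10.6), and Vim, that of mesenchymal cells, had 36 in the dKO-labelled library and 20 in the control library (1.62-fold, 0.914 to 2.96). Against the median of measured genes, 2 were called higher (background 11.8%) and 0 lower (background 10.4%).

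Keratin filaments are held at desmosomes and cross-linked by plakins. Of the 14 genes listed for this, 10 were measured, with 2 called higher (background 26.2%), 2 called lower (background 4.18%) and a median log2 ratio of 0.15 beside 0.51 for all measured genes. Against that median the counts were 1 higher (background 11.8%) and 2 lower (background 10.4%). Ppl (periplakin) had 78 reads in the dKO-labelled library and 16 in the control library (4.39-fold, 2.54 to 8.06). Evpl (envoplakin), its partner in stratified epithelia, had 72 in the dKO-labelled library and 30 in the control library (2.16-fold, 1.39 to 3.43). Eppk1 (epiplakin), which binds keratin filaments, had 39 reads in the dKO-labelled library and 176 in the control library, a ratio of 0.200 (0.137 to 0.284). Dst, a spectraplakin whose epithelial form anchors keratins at hemidesmosomes, has 2 rows in the table and in the higher one had 14 reads in the dKO-labelled library and 62 in the control library, a ratio of 0.204 (0.105 to 0.368). Eppk1 and Dst were thus lower and Ppl and Evpl higher in the dKO-labelled library. Pkp1, a desmosomal plakophilin, had 28 reads in the dKO-labelled library and 13 in the control library (1.94-fold, 0.973 to 4.08), and the log2 ratios of the other 5 measured genes lay between -0.25 and 0.18. Of these Dsp (desmoplakin, named after its values were seen) had 1136 reads in the dKO-labelled library and 921 in the control library, a ratio of 1.11 (1.02 to 1.21). Plec (plectin) has 6 rows in the table and at most 8 reads in its highest one, so it was not measured.

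Over all measured genes the ratios differed by transcript length. Eppk1 and Dst have transcripts of 12332 and 8788 bases, while Dsp, with 9592 bases, had a log2 ratio of 0.15, and Ppl, with 6217 bases, one of 2.01. Among the 271 measured genes with transcripts over 8000 bases the median log2 ratio was 0.05, with 12.9% called lower. Among the 1363 genes of 1000 to 2000 bases, the class of all members other than Krt7, it was 0.61, with 31.5% called higher and 2.20% called lower. Its part in the results was not tested.

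The epithelial origin of both libraries was plain from Epcam, with 1828 reads in the dKO-labelled library and 1412 in the control library. Of 12 pan-epithelial genes 9 were measured, with 0 called higher (background 26.2%) and 0 lower (background 4.18%). Their median log2 ratio was 0.22, beside 0.51 for all measured genes. Against that median, 0 were called higher (background 11.8%) and 1 lower (background 10.4%). The summed reads of the list had a ratio of 0.947 (0.909 to 0.987), so sum and median lay on opposite sides of no difference. Its measured genes ranged beyond counting error from St14 at 0.591 (0.538 to 0.649) to Ehf at 1.98 (1.43 to 2.75), both named after their values were seen. The intervals of ratios relative to the list do not cover that spread. Relative to the summed reads of this list, Krt7 was 2.37-fold (2.02 to 2.78) and Krt19 2.16-fold (1.92 to 2.44) higher in the dKO-labelled library, Krt8 1.35-fold (1.25 to 1.47), and Krt23 lower with a ratio of 0.703 (0.569 to 0.868). Krt18 was at 1.11 (1.00 to 1.24) and Krt20 at 1.04 (0.965 to 1.12). The order is that of the other scalings. In bulk RNA, fewer cells of a type and less RNA per cell cannot be told apart.

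Markers of other cell types stood as follows. Mesothelial genes had 55 reads in the dKO-labelled library and 21 in the control library over 5 genes (ratio 2.36, 1.40 to 4.11). They were led by Msln with 31 (dKO-labelled) and 10 (control). Tuft cell genes had 233 in the dKO-labelled library and 472 in the control library over 8 genes (ratio 0.445, 0.379 to 0.522). They were led by Trpm5 with 33 (dKO-labelled) and 189 (control), with Dclk1 and Gfi1b at 0 in both. Goblet cell genes had 4077 in the dKO-labelled library and 5042 in the control library over 9 genes (ratio 0.729, 0.699 to 0.760). They were led by Fcgbp with 1031 (dKO-labelled) and 1872 (control). The goblet list was mixed, with 4 genes with more and 4 with fewer reads in the deeper dKO-labelled library. Scaled for depth, its median log2 ratio was -0.09. Spdef had 73 (dKO-labelled) and 28 (control) and Agr2 had 241 (dKO-labelled) and 137 (control). Crypt and proliferation genes had 307 in the dKO-labelled library and 147 in the control library over 10 genes (1.88-fold, 1.54 to 2.31), led by Pcna with 124 (dKO-labelled) and 83 (control). Of these, 3 were measured, with 1 called higher (background 26.2%) and 0 lower (background 4.18%). Their median log2 ratio was 0.42, beside 0.51 for all measured genes. All 10 crypt and proliferation genes had more reads in the deeper dKO-labelled library, those not measured at low counts. Stromal and muscle genes had 318 in the dKO-labelled library and 50 in the control library over 9 genes (5.73-fold, 4.24 to 7.89), led by Col3a1 with 72 (dKO-labelled) and 8 (control), and Des and Vim above are textbook markers of the same cells. Pancreatic duct and acinar genes had 218 in the dKO-labelled library and 164 in the control library over 7 genes (ratio 1.20, 0.974 to 1.48). They were led by Sox9, which crypts also express, with 110 (dKO-labelled) and 104 (control), and Prss1 and Ptf1a were at 0 in both. Squamous genes had 131 in the dKO-labelled library and 95 in the control library over 10 genes (ratio 1.24, 0.947 to 1.64). Nearly all came from Sprr1a with 107 (dKO-labelled) and 84 (control), while Krt5 with 5 reads and Krt14 with 2 in the dKO-labelled library were both at 0 in the control library. The part of these cell types in the keratin ratios was not tested.

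Immune genes had 125 reads in the dKO-labelled library and 75 in the control library over 9 genes, led by Lyz2 with 64 (dKO-labelled) and 48 (control). Endothelial genes had 49 in the dKO-labelled library and 53 in the control library over 6 genes (ratio 0.833, 0.553 to 1.25). They were led by Tie1 with 5 (dKO-labelled) and 48 (control). Tie1 was the one endothelial gene with fewer reads in the dKO-labelled library. More reads there were found for 4, such as Lyve1 with 19 (dKO-labelled) and 1 (control). Enteroendocrine genes had 2451 in the dKO-labelled library and 1549 in the control library over 10 genes (ratio 1.43, 1.34 to 1.52). They were led by Chgb with 1192 (dKO-labelled) and 593 (control). That sum rests on the granins Chga and Chgb: 5 of the 10 had fewer reads in the dKO-labelled library, among them Gip with 246 (dKO-labelled) and 387 (control), and the median log2 ratio was -0.25. Spdef, Agr2, Lyve1, Chga and Gip are named here after their values were seen.

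With 2 libraries, likeness of pattern comes down to 1 level and 1 ratio. The 3 genes nearest to Krt20 in log2 mean level and log2 ratio were Actg1, Dstn and Actb, at distances of 0.10, 0.15 and 0.26. Actg1, a cytoplasmic actin, had normalised counts of 1882 in the dKO-labelled library and 1992 in the control library, and Dstn, the actin-severing protein destrin, had 1886 in the dKO-labelled library and 2113 in the control library. Actb, the other cytoplasmic actin, had 1683 in the dKO-labelled library and 1969 in the control library. The nearest genes thus encode actins and an actin regulator. A log2 ratio within 0.1 of that of Krt20 was shared by 485 measured genes, and 370 lay as close to Krt7.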

How the data were processed

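The submitters' processing notes name mm9, TopHat and DESeq, with no versions. For the counter, strand setting and multiply mapped reads, settings were not given in the sources used here, so reads of Krt8 and Krt18, which have processed pseudogenes, may be undercounted. The deposited signal values are normalised counts per RefSeq transcript (DESeq base means, per the file headers). All 22040 rows (100%) were whole multiples of the smallest value of their column within 0.001 of a step, and 0 rows were at 0, so reads were recovered as steps minus 1. The deposited fold (ratio), log2 and unadjusted p-value columns are the authors'. Log2 ratios are log2((dKO + 1)/(control + 1)) on the normalised count scale, for the highest-mean row per symbol. Genes with a mean of at least 20 were measured and were called by size at 2-fold. Ratios use recovered reads divided by the size factor ratio (1.11). Lengths came from GENCODE M21, found through RefSeq identifiers. Named genes were the members, measured keratins, up to 5 linkers and filament genes with the largest log2 ratios, the leading marker of each list and the 3 genes nearest to Krt20. The members and lists were chosen with earlier results of these data known. Functions were checked on simulated counts. Tools were scipy 1.17.1, numpy 2.4.6, pandas 2.3.3 and matplotlib 3.10.9 in Python 3.11.15, with edgeR 4.0.16 in R 4.3.3 for TMM only.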

Additional observations from a re-analysis of the deposited data

How the results depend on the processing

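No paired analysis was possible because each genotype has 1 library, and for the same reason none could be left out. Against 2 members at least 2-fold higher and 0 lower, there were 0 and 0 with total counts and with thinning, and 0 and 1 with the upper quartile, TMM and the median set to 0. The background over all measured genes was 26.2% higher and 4.18% lower with the deposited factors. With the median set to 0 it was 11.8% and 10.4%. No background is given for the other scalings, for thinning or for the interval rule, so the counts there have nothing to be set against. A counting interval wholly beyond 2-fold gave 0 and 0 members. The authors' deposited p-values under 0.05 also gave 0 and 0. Of all 22040 rows, 104 higher and 19 lower passed that rule. Such counts of members are therefore not read as a result about the keratins. An exact binomial test of the reads, added after seeing the data and comparing the libraries alone, gave 3 and 1 (over all measured genes 3013 and 698, Benjamini-Hochberg adjusted). The log2 ratio of the summed keratins was 0.28, and -0.015 with total counts, -0.41 with the upper quartile, -0.23 with TMM, -0.22 with the median set to 0, 0.36 with pan-epithelial genes set equal and 0.0025 with thinning. The type II to type I contrast of 1.27 was 1.12 without Krt7 and Krt23. A pseudocount of 5, the added read taken off, summed rows and other filters on low values left the counts, the sum and the contrast, where each applies, as they were or within their interval. Classes of transcript length and level were also added after seeing the data. Depth limits the 45 unmeasured keratins, for which no direction can be given.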
